A study of Mus musculus with 2 samples.

Results

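The primed epiblast genes described here are *Otx2*, *Pou3f1*, *Fgf5*, *Lef1*, *Pim2*, *Sall2* and *Cdh2*, which are 7 of the 54146 gene rows in the count tables. They were taken by name, through their Ensembl identifiers without the version, by a rule that uses no measured value. The names were chosen with earlier results of these data known. All 7 were found in both tables. The data were 2 single-cell RNA-seq libraries of mouse ES cells, 1 wild-type and 1 with *Lin28a* knocked out, made on the inDrop platform, which captures cells in droplets with barcoded primers. Reads are collapsed by a molecular tag, the UMI, so that a count is a count of molecules. The wild-type cells were a transfected clone of the E14 line that kept *Lin28a*, and the knockout cells were a clone made with CRISPR/Cas9. Both clones were held on gelatin with mouse embryonic fibroblast (MEF) feeders in LIF with the MEK and GSK3 inhibitors together known as 2i. Each genotype was 1 clone, 1 culture and 1 library, and these cannot be told apart. No test was made, and every interval below is a 95% interval that covers counting error only.

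Mouse ES cells in LIF/2i correspond to the naive epiblast before implantation, and the 7 genes belong to the programme that epiblast cells take up as they leave that state around implantation. In the usual picture the levels of the naive factors *Nanog*, *Zfp42* and *Esrrb* fall as cells leave the naive state. OTX2 and the POU factor OCT6, the product of *Pou3f1*, redirect OCT4 to new enhancers. FGF and MEK signalling drives this step, and 2i medium blocks it, so that low levels of such genes are typical of these cultures.

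The limits of at least 500 UMIs and at most 20% mitochondrial UMIs kept 1856 wild-type cells (median 6140 UMIs) and 1622 knockout cells (median 5063.5 UMIs). They held 11639256 and 9340855 UMIs, and counts are given per 1000000 of these (CPM). *Lin28a* stood at 107 CPM in wild-type and 36.6 CPM in knockout cells, so the library labelled knockout kept part of its *Lin28a* transcript. These are RNA counts and do not measure protein. The paper reports loss of the LIN28A protein in its CRISPR/Cas9 clones by western blot. The 7 ES markers had a summed level of 3843 CPM in wild-type and 4095 CPM in knockout cells. Among the kept cells 41 wild-type and 21 knockout cells were feeder-like, defined as having at least 0.5% and at least 3 of their UMIs on the collagen genes *Col1a1*, *Col1a2* and *Col3a1*. Their 14 fibroblast markers summed to 31569 CPM in wild-type and 28261 CPM in knockout cells, against 699 and 694 CPM in the other cells. The 14 include the 3 collagen genes of the definition, so much of this contrast was set by it. Outside the definition, *Sparc* stood at 8446 CPM in wild-type and 7452 CPM in knockout feeder-like cells, against 268 and 276 CPM. *Fn1* differed less, at 1342 and 736 CPM against 390 and 377 CPM.

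All 7 genes were rare. Summed, they had 407 UMIs in wild-type and 316 UMIs in knockout cells, or 34.97 CPM (31.7 to 38.5) and 33.8 CPM (30.2 to 37.8). The ratio of knockout to wild-type was 0.967 (0.833 to 1.12). This near-equal total was made up of 6 genes with a ratio above 1, whose intervals all included 1, and of *Cdh2*, which was lower in the knockout library. Over all 15453 genes of at least 50 UMIs the median ratio was itself above 1, at 1.04. *Pou3f1*, at 1.001, lay under that median, so the count of 6 is not read as a rise. Without *Cdh2* the sum stood at 26.8 CPM (23.9 to 29.95) in wild-type and 30.9 CPM (27.5 to 34.7) in knockout cells, a ratio of 1.15 (0.980 to 1.36).

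**Figure D1:**
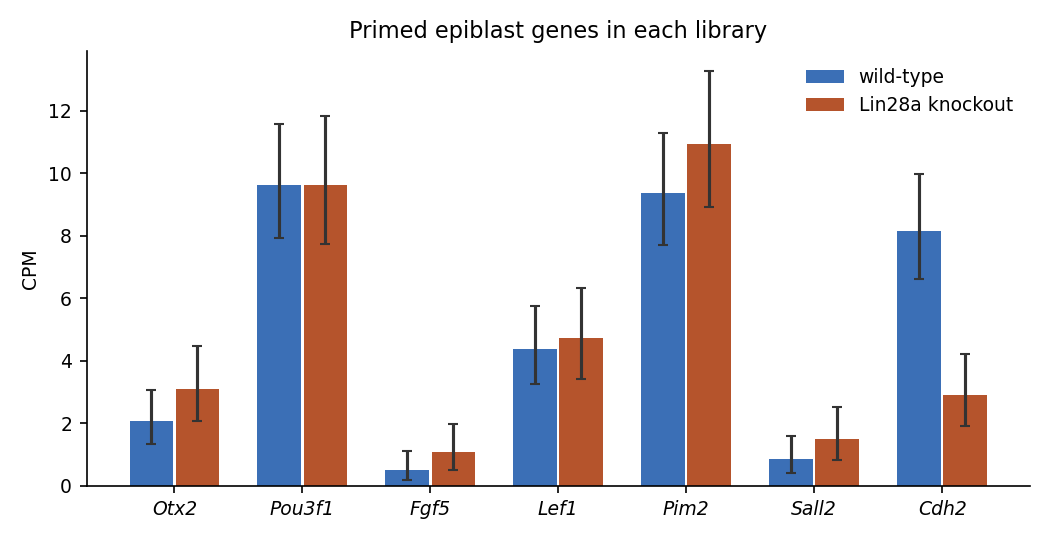
Level of each of the 7 primed epiblast genes, as CPM over all kept cells (vertical axis), in the wild-type (blue) and *Lin28a* knockout (brown) library; bars are single-library values and error bars exact Poisson 95% intervals. The intervals of the libraries overlap for every gene except *Cdh2*, at 8.16 CPM in wild-type and 2.89 CPM in knockout cells.

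Among the transcription factors, *Otx2* (ENSMUSG00000021848.16, chromosome 14 from 48657677 to 48673819 of GRCm38, minus strand) encodes a homeodomain protein needed for exit from the naive state. It had 24 UMIs in 24 wild-type cells and 29 UMIs in 26 knockout cells. Its level was 2.06 CPM (1.32 to 3.07) in wild-type and 3.10 CPM (2.08 to 4.46) in knockout cells, a ratio of 1.51 (0.846 to 2.70). No wild-type cell held more than 1 *Otx2* UMI, and 1 knockout cell held 3.

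*Pou3f1* (ENSMUSG00000090125.3, chromosome 4 from 124656807 to 124660655, plus strand) encodes OCT6. It had 112 UMIs in 100 wild-type cells and 90 UMIs in 85 knockout cells, 9.62 CPM (7.92 to 11.6) and 9.64 CPM (7.75 to 11.8). The ratio was 1.001 (0.7501 to 1.33), the closest to 1 of the 7 genes. Differences inside these limits were not detectable at this depth. As the mean over cells of the per-cell CPM the ratio was 1.39.

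*Sall2* (ENSMUSG00000049532.11, chromosome 14 from 52311172 to 52328762, minus strand), a zinc-finger gene of the spalt family, had 10 UMIs in the wild-type library and 14 in knockout cells, each in a cell of its own. This gave 0.859 CPM (0.412 to 1.58) and 1.499 CPM (0.819 to 2.51), and a ratio of 1.74 (0.721 to 4.39). At this depth a difference between the libraries was not detectable. *Lef1* (ENSMUSG00000027985.14, chromosome 3 from 131110471 to 131224356, plus strand), which encodes a DNA-binding partner of beta-catenin in Wnt signalling, had 51 UMIs in 50 wild-type cells and 44 UMIs in 44 knockout cells. Its 4.38 CPM (3.26 to 5.76) and 4.71 CPM (3.42 to 6.32) gave a ratio of 1.08 (0.702 to 1.64). As the mean over cells of the per-cell CPM it was 1.92, and in cells of at least 2000 UMIs 0.913 (0.579 to 1.43).

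*Fgf5* (ENSMUSG00000029337.2, chromosome 5 from 98254184 to 98277030, plus strand), a secreted growth factor widely used as a label of the epiblast after implantation, was the rarest of the 7 in UMIs. It had 6 UMIs in 6 of the 1856 wild-type cells and 10 UMIs in 10 of the 1622 knockout cells. The levels were 0.515 CPM (0.189 to 1.12) and 1.07 CPM (0.513 to 1.97), with a ratio of 2.08 (0.684 to 6.95), too wide to give a direction. *Pim2* (ENSMUSG00000031155.16, chromosome X from 7878262 to 7883432, plus strand), a serine/threonine kinase of the Pim family, had 109 UMIs in 102 wild-type cells and 102 UMIs in 86 knockout cells. It stood at 9.36 CPM (7.69 to 11.3) and 10.9 CPM (8.90 to 13.3), a ratio of 1.17 (0.881 to 1.54). Of its positive cells, 6 wild-type and 14 knockout cells held at least 2 UMIs.

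*Cdh2* (ENSMUSG00000024304.14, chromosome 18 from 16588877 to 16809246, minus strand) encodes N-cadherin, the cell adhesion protein that takes over from E-cadherin in mesenchymal and neural cells and is abundant in fibroblasts. It had 95 UMIs in 70 wild-type cells and 27 UMIs in 26 knockout cells. Its level was 8.16 CPM (6.60 to 9.98) in wild-type and 2.89 CPM (1.90 to 4.21) in knockout cells, and its ratio was 0.354 (0.222 to 0.548). It was the only one of the 7 genes whose interval of the ratio left out 1. In the wild-type library 13 cells held at least 2 *Cdh2* UMIs and 1 of them held 5, whereas 1 knockout cell held 2.

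With 0.5 added to each count and a minimum of 50 UMIs over both libraries, 5 of the 7 genes could be compared with the rest of the transcriptome. *Fgf5* and *Sall2* fell under this minimum. A ratio of at least 1.5 in either direction was reached by 19.9% of the 15453 genes that passed it, 10.5% being higher and 9.48% lower in the knockout library. Of the primed epiblast genes *Otx2* was past it upward, with a value of 1.5004 that lay at the limit, and *Cdh2* downward, with 0.359. A change of at least 2-fold was found for 4.72% of these genes, 2.12% higher and 2.60% lower, and among the 5 for *Cdh2* alone. Among genes of 50 to under 250 UMIs, the range in which all 5 lay, 16.6% were higher and 10.9% lower, so 1 gene in each direction is near the background.

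Part of the *Cdh2* signal came from the feeder-like cells. In the wild-type library 39 of the 95 *Cdh2* UMIs, 41.1%, were in the 41 feeder-like cells. They stood at 95.8 CPM (68.1 to 131), and the other 1815 cells at 4.99 CPM (3.77 to 6.47). This is a ratio of 19.2 (12.4 to 29.4), and 17 of the 41 cells held a *Cdh2* UMI. None of the 27 *Cdh2* UMIs of the knockout library was in its 21 feeder-like cells. Those cells had a median of 2295 UMIs, against 9273 in the wild-type feeder-like cells, and a count of 0 in their 108700 UMIs allows up to 27.6 CPM by the floor of 3 counts used here for counts of 0, or 33.9 CPM by the exact Poisson limit.

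Without the feeder-like cells *Cdh2* had 56 UMIs in wild-type and 27 in knockout cells, and the ratio rose from 0.354 to 0.587 (0.356 to 0.944). The upper limit was then close to 1. In the barcodes under 500 UMIs *Cdh2* stood at 11.4 CPM (3.70 to 26.6) in wild-type and 11.9 CPM (5.13 to 23.4) in knockout. The knockout cells that were not feeder-like stood lower, at 2.92 CPM (1.93 to 4.26). What these barcodes held was not tested. In cells without a single UMI of the 3 collagen genes *Cdh2* stood at 5.33 CPM (3.98 to 6.995), 52 UMIs in 1594 wild-type cells, and at 2.65 CPM (1.64 to 4.05), 21 UMIs in 1426 knockout cells. Over those cells the ratio was 0.496 (0.284 to 0.838). The remaining cells, with 1 or more collagen UMIs but not feeder-like, went the other way on few counts, with 2.70 CPM (0.734 to 6.90), 4 UMIs in 221 wild-type cells, and 4.63 CPM (1.70 to 10.1), 6 UMIs in 175 knockout cells, and these intervals overlap. The ratios of the 6 other genes moved little when the feeder-like cells were left out, between 1.005 for *Pou3f1* and 2.03 for *Fgf5*, and all their intervals included 1. The sum of all 7 then came to 1.06 (0.912 to 1.24).

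**Figure D2:**
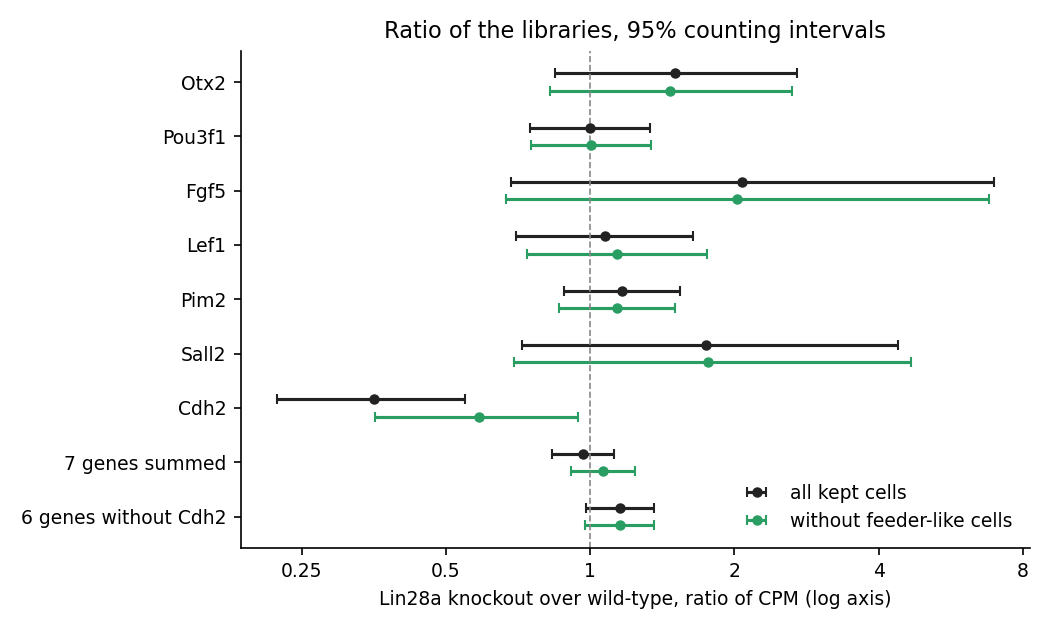
Ratio of the CPM in the *Lin28a* knockout library to that in the wild-type library (horizontal log axis) for each of the 7 genes, their sum, and the sum without *Cdh2*, over all kept cells (black) and without feeder-like cells (green), with 95% counting intervals. *Cdh2* lies left of 1 in both and moves from 0.354 to 0.587, and the other intervals include 1.

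**Figure D3:**
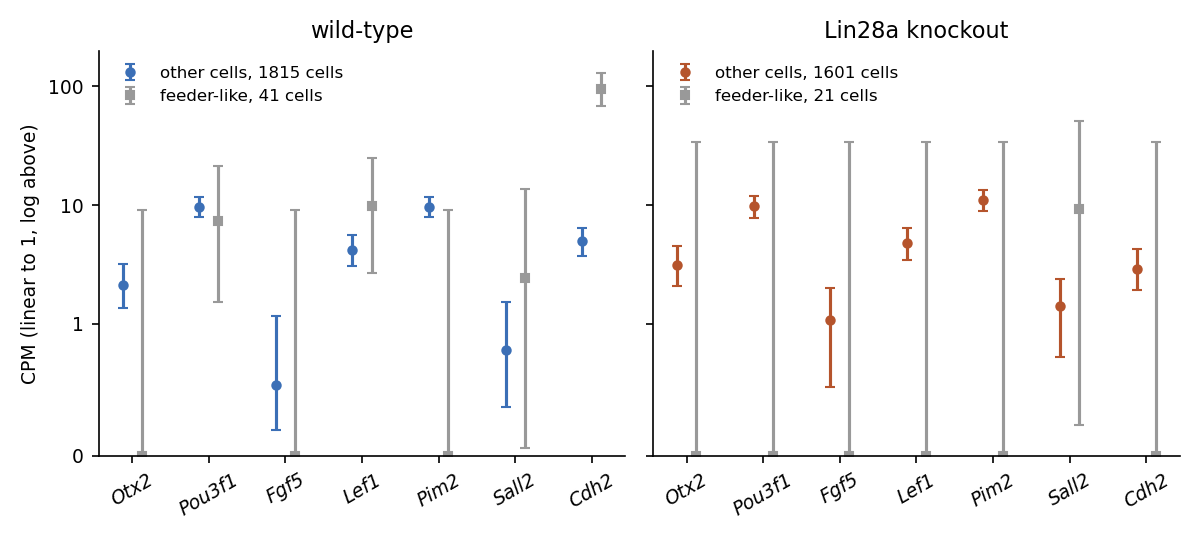
CPM of the 7 genes (vertical axis, linear up to 1 and logarithmic above) in feeder-like cells (grey squares) and in the other kept cells (coloured circles) of the wild-type (left) and *Lin28a* knockout (right) library, with exact Poisson 95% intervals. *Cdh2* stands at 95.8 CPM in the 41 wild-type feeder-like cells, and most grey points lie at 0 with wide intervals.

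The feeder-like cells were also used to ask how far these low counts can be read as expression in ES cells. A fibroblast should lack *Otx2*, *Pou3f1* and *Fgf5*. *Pou3f1* had 3 UMIs in 3 of the 41 wild-type feeder-like cells, a share of 7.32% (1.54% to 19.9%), at a median of 9273 UMIs per cell. The share in the other wild-type cells was 5.34% (4.35% to 6.48%) at a median of 6107 UMIs. Depth differed, and 3 positive feeder-like cells were too few to place either share above the other. Brought to 500 UMIs per cell, the shares were 0.247% and 0.480%. The CPM ratio of feeder-like to other cells was 0.760 (0.154 to 2.28).

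*Otx2*, *Fgf5* and *Pim2* had 0 UMIs in the 41 wild-type feeder-like cells, which by the floor of 3 counts allows a share of up to 7.32% of cells (exact limit 8.60%). So few cells could not have set a limit under the 1.32%, 0.331% and 5.62% of the other cells, and these shares are not compared. In the 21 knockout feeder-like cells 0 UMIs allow a share of up to 14.3% (exact limit 16.1%), and among the 7 genes only *Sall2* was found there, with 1 UMI. For comparison, the ES markers *Pou5f1* and *Nanog* stood at 34.4 and 22.1 CPM in the wild-type feeder-like cells, against 867 and 268 CPM in the other cells. Wild-type *Pim2* stood at 9.70 CPM in the other cells against an exact upper limit of 9.06 CPM in feeder-like cells, a ratio of 0 with an upper limit of 0.950. In the wild-type barcodes under 500 UMIs *Pim2* stood at 20.5 CPM (9.37 to 38.9). Whether those barcodes held free RNA or cells was not tested, so this value sets no background. For *Otx2*, *Pou3f1*, *Fgf5*, *Lef1* and *Sall2*, and for *Pim2* in knockout cells, the interval of the ratio of feeder-like to other cells included 1. For *Otx2*, *Pou3f1* and *Fgf5* the feeder-like cells were too few to tell whether they stood above free RNA in ES cells. *Lef1*, *Sall2* and *Pim2* were not taken as absent from fibroblasts, so for them this comparison sets no background of free RNA.

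Since depth differed between the libraries, the share of cells with a UMI was also computed at 500 UMIs per cell. At that depth a UMI of any of the 7 genes would be held by 1.65% of wild-type and 1.94% of knockout cells, against 17.6% and 15.97% at full depth. For single genes, the share at 500 UMIs was 0.475% and 0.645% for *Pou3f1*, 0.453% and 0.468% for *Pim2*, and 0.189% and 0.364% for *Lef1*, for wild-type and knockout cells in turn. *Cdh2* had 0.345% and 0.154%.

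The summed level was also compared across depth and ribosomal protein content. The 512 knockout cells of 500 to 2000 UMIs had 51.1 CPM (33.0 to 75.4) of the 7 genes, against 32.7 CPM (27.4 to 38.7) in the 314 cells over 10000 UMIs, and these intervals overlap. In the wild-type library the 214 cells of 500 to 2000 UMIs held 3 UMIs of the 7 genes, 15.7 CPM (3.24 to 45.9), against 39.5 CPM (32.03 to 48.3) over 10000 UMIs. The shallow intervals overlap between the libraries.

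The 233 knockout cells with under 5% of their UMIs on 92 ribosomal protein genes stood at 64.6 CPM (40.0 to 98.8), with a median of 1200 UMIs per cell. The 1389 other knockout cells stood at 32.7 CPM (29.1 to 36.7). *Lef1* made up 8 of the 21 UMIs in these 233 cells, which is 24.6 CPM (10.6 to 48.5), while the other cells had 3.99 CPM (2.80 to 5.53). The wild-type library had 90 cells under 5%, with 4 UMIs of the 7 genes in all. Of these 233 knockout cells 190 had under 2000 UMIs, and they stood at 76.5 CPM (43.7 to 124), from 16 UMIs. The 322 knockout cells under 2000 UMIs with at least 5% stood at 32.1 CPM (14.7 to 60.9), from 9 UMIs, and the intervals overlap.

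The genes were then set against the naive factors *Nanog* and *Zfp42* (also called Rex1) in cells of at least 2000 UMIs, of which there were 1642 in wild-type and 1110 in knockout cells. Each cell was thinned at random to 2000 UMIs, so that depth did not decide in which group it fell. The question is whether cells low in a naive factor were those that held the primed transcripts. Thinned to 2000 UMIs, no lower level of the 7 genes at higher *Nanog* or *Zfp42* was detectable in the first draw. Deeper thinning gave other values, which follow.

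In wild-type cells the 7 genes summed to 35.4 CPM (27.7 to 44.5) in the 1032 cells with no *Nanog* UMI, 33.9 CPM (22.5 to 49.0) in the 413 cells with 1, and 38.1 CPM (21.3 to 62.8) in the 197 cells with 2 or more. The ratio of the last to the first was 1.08 (0.573 to 1.89). In knockout cells the corresponding levels were 28.5 CPM (20.4 to 38.6) in 720 cells, 31.4 CPM (18.3 to 50.2) in 271 cells and 58.8 CPM (32.2 to 98.7) in 119 cells, a ratio of 2.07 (1.04 to 3.87). This last value rests on 14 UMIs against 41 and on a single random draw of the thinning. The 3 knockout groups also differed in full depth, with medians of 6773.5, 8073 and 8978 UMIs.

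Over 20 further draws the knockout ratio for *Nanog* ranged from 0.653 to 2.496, with a median of 1.66, and the interval lay above 1 in 4 of the 20. In 18 of the 20 it was above 1. The wild-type ratio ranged from 0.768 to 1.63 with a median of 1.13, and its interval lay above 1 in 0 draws. When the cells were still grouped by thinned *Nanog* UMIs but all UMIs of the 7 genes were counted, the medians over draws were 1.02 in wild-type and 1.28 in knockout cells, and the knockout interval lay above 1 in 6 of 20 draws.

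Thinning to 5000 UMIs, added after the data were seen for repeated draws, left 1234 wild-type and 821 knockout cells. With all UMIs of the 7 genes counted, the knockout ratio for *Nanog* was above 1 in 20 of 20 draws, from 1.30 to 1.72 with a median of 1.48, and its interval lay above 1 in 18. In the thinned counts it ranged from 1.06 to 2.52, with the interval above 1 in 11 draws. Without feeder-like cells the median in all UMIs was 1.45. The draws reuse the same cells and are no replicates. The wild-type median in all UMIs was 0.865, with the interval below 1 in 2 of 20 draws. Without feeder-like cells it was 1.17, with the interval above 1 in 2 draws. Whether the libraries differed in this ratio was not tested.

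**Figure D4:**
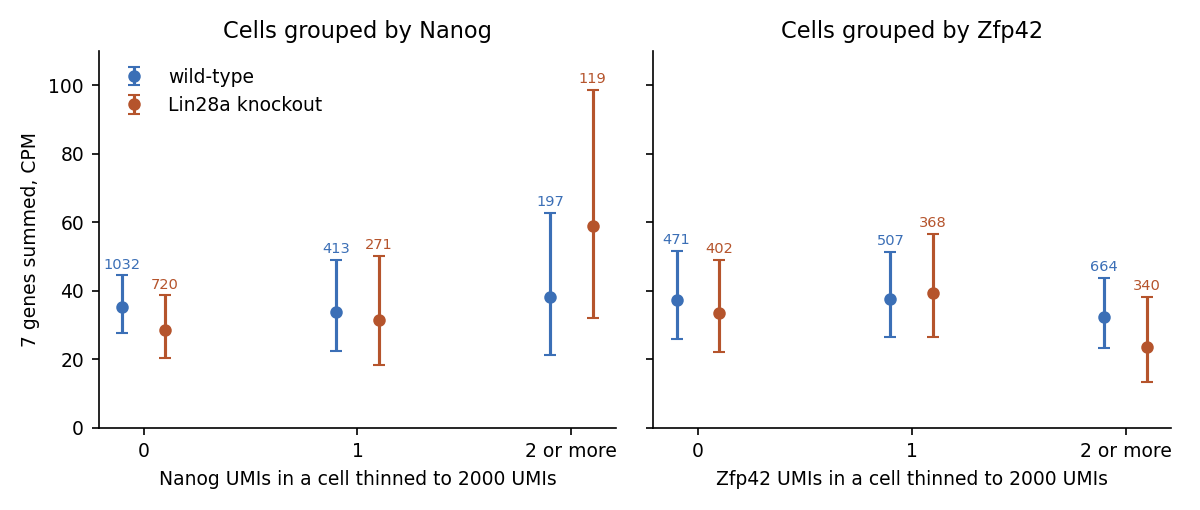
Summed CPM of the 7 genes (vertical axis) in cells of at least 2000 UMIs grouped by 0, 1, or 2 or more UMIs of *Nanog* (left) or *Zfp42* (right) after thinning to 2000 UMIs, for wild-type (blue) and *Lin28a* knockout (brown) cells, with exact Poisson 95% intervals and the number of cells above each point. The intervals of neighbouring groups overlap, including the highest point, 58.8 CPM in 119 knockout cells.

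For *Zfp42* the wild-type levels were 37.2 CPM (25.9 to 51.7) in 471 cells with none, 37.5 CPM (26.5 to 51.4) in 507 cells with 1, and 32.4 CPM (23.4 to 43.6) in 664 cells with 2 or more, a ratio of 0.871 (0.545 to 1.40). In the knockout library they were 33.6 CPM (22.1 to 48.9) in 402 cells, 39.4 CPM (26.4 to 56.6) in 368 cells and 23.5 CPM (13.4 to 38.2) in 340 cells, a ratio of 0.701 (0.353 to 1.35). The 20 further draws gave 0.743 to 1.63 in wild-type and 0.817 to 1.77 in knockout cells, with medians of 1.06 and 1.13. In all UMIs the wild-type median was 0.879, with the ratio above 1 in 2 of 20 draws and the interval below 1 in 3. Without *Cdh2* that ratio was above 1 in 20 of 20 draws, with the interval above 1 in 6. The knockout ratio in all UMIs was above 1 in 18 of 20 draws, with a median of 1.21 and the interval above 1 in 1. The first knockout draw in thinned counts lay below all 20, and no direction can be read from it.

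Thinned to 5000 UMIs, the wild-type ratio for *Zfp42* was below 1 in 20 of 20 draws in all UMIs, from 0.552 to 0.699, and its interval lay below 1 in each. In the thinned counts it was 0.520 to 1.32, and the interval lay below 1 in 3 draws. Without the feeder-like cells the same ratio was above 1 in 20 of 20 draws, from 1.44 to 4.12 with a median of 2.22. Its interval lay above 1 in 16 draws. In the thinned counts that ratio was unstable, from 1.27 to 10.5, with the interval above 1 in 11. The size of the group with no *Zfp42* UMI at this depth was not recorded. The draws reuse the same cells, so their number adds no weight. In knockout cells, with feeder-like cells kept and all UMIs counted, the ratio was 1.28 to 2.198 with a median of 1.66. Its interval lay above 1 in 11 draws. Without feeder-like cells the knockout median was 1.58, with the interval above 1 in 8. In the thinned counts the interval lay above 1 in 4 draws, and in 1 draw without feeder-like cells.

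**Figure D5:**
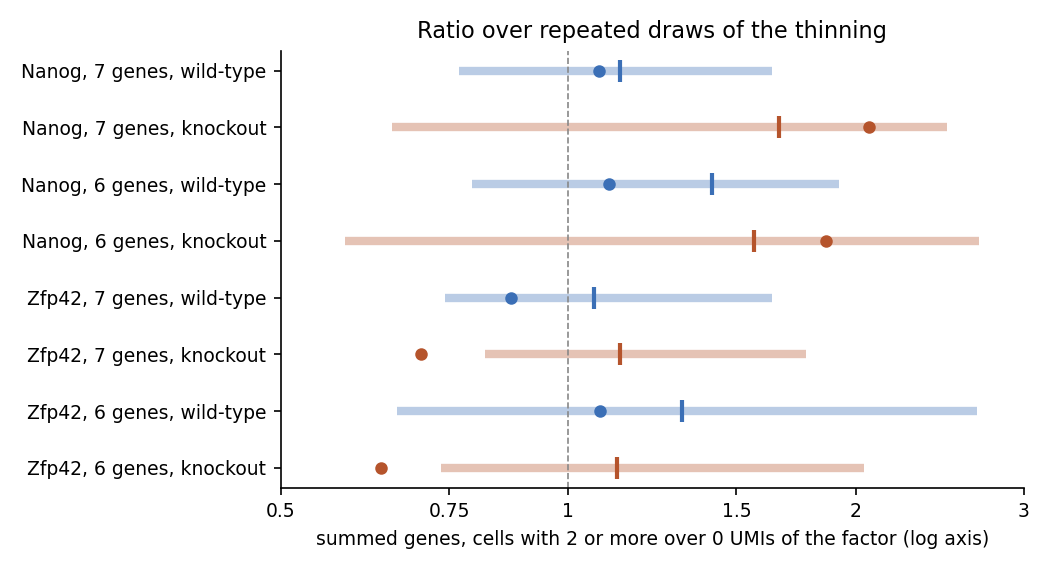
Ratio of the summed genes in cells with 2 or more UMIs of *Nanog* or *Zfp42* to cells with 0 (horizontal log axis), for all 7 genes and for the 6 without *Cdh2*, after thinning to 2000 UMIs, in wild-type (blue) and *Lin28a* knockout (brown) cells; circles are the first draw of the thinning, bars the range over 20 further draws and ticks their median. Every bar crosses 1, and the knockout circles for *Zfp42* fall outside their bars.

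Single genes had few UMIs in each group. In the first draw *Pou3f1* stood at 11.1 CPM (7.06 to 16.7) in wild-type cells with no *Nanog* UMI and at 10.2 CPM (2.77 to 26.0) with 2 or more, and *Pim2* at 8.24 CPM (4.80 to 13.2) and 12.7 CPM (4.12 to 29.6). None of the 28 single-gene ratios by *Nanog* or *Zfp42* had an interval that left out 1 in thinned counts, and in all UMIs of the same draw 3 did. By *Nanog* in knockout cells these were *Otx2* at 3.74 (1.28 to 10.5), from 8 UMIs against 10, and *Pou3f1* at 1.94 (1.03 to 3.49), from 17 UMIs against 41. The other was *Cdh2* against *Zfp42* in wild-type cells, with 24 UMIs in cells with 2 or more and 51 in cells with none, a ratio of 0.336 (0.198 to 0.556). Of the 39 wild-type feeder-like cells of this depth 38 were in the group with no *Zfp42* UMI. Against *Pou5f1*, which encodes OCT4 and is kept in naive and primed cells alike, the 7 genes had a wild-type ratio of 0.644 (0.510 to 0.815) in all UMIs. Without *Cdh2* it was 0.949 (0.712 to 1.27). In knockout cells the ratio of the 7 genes by *Pou5f1* was 1.03 (0.725 to 1.48). In thinned counts the *Pou5f1* ratios were 0.747 (0.479 to 1.18) in wild-type and 0.766 (0.405 to 1.53) in knockout cells. By *Esrrb* they were 0.617 (0.240 to 1.33) and 0.628 (0.194 to 1.58) in thinned counts. In all UMIs the *Esrrb* ratios were 1.06 (0.744 to 1.49) and 0.868 (0.560 to 1.30). By *Lin28a* the wild-type ratio was 2.21 (0.793 to 4.99) in thinned counts, from 6 UMIs against 98.

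Few cells held more than 1 of the 7 genes, and each gene alone was rare. In cells of at least 2000 UMIs, *Fgf5* was found in 6 wild-type and 9 knockout cells, and *Pim2*, the most frequent, in 102 and 83. The overlap expected from such low shares alone was not computed. The numbers below are therefore not read as a link, or a lack of one, between the 7 genes. At full depth none of them was found in 1319 of the 1642 wild-type cells and 875 of the 1110 knockout cells of at least 2000 UMIs. A single gene was found in 292 wild-type and 207 knockout cells, and 2 genes in 26 and 25 cells. Only 5 wild-type cells held 3 genes, and in the knockout library 2 cells held 3 and 1 cell held 4.

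Of these 8 cells, 7 carried UMIs of *Nanog*, *Zfp42* and *Pou5f1*. The knockout cell with 4 genes had 1 UMI each of *Otx2*, *Pim2*, *Sall2* and *Cdh2*, beside 3 of *Nanog*, 5 of *Zfp42* and 8 of *Pou5f1*, in 11468 UMIs. The remaining cell was a wild-type feeder-like cell of 26809 UMIs with 704 collagen UMIs, 5 *Cdh2* UMIs, and 1 UMI each of *Pou3f1* and *Sall2*. After thinning to 2000 UMIs 2 wild-type and 1 knockout cell held 2 genes and none held more.

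Pairs were as sparse. *Lef1* was found in 3 of 23 *Otx2*-positive wild-type cells, 13.0% (2.78% to 33.6%), against 2.90% (2.14% to 3.84%) of the cells without *Otx2*. *Sall2* was found in 3 of 23 *Otx2*-positive knockout cells, 13.0% (2.78% to 33.6%), against 1.01% (0.506% to 1.80%) of the others. The wild-type intervals overlap. Both pairs were picked after the values of many pairs were seen, and *Otx2*-positive knockout cells were deeper than the others, with a median of 10329 UMIs against 7225.

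Other genes of the same programme were compared as lists, relative to a median ratio of 1.04 over all 15453 genes. Of 24 further formative and primed epiblast genes 19 had at least 50 UMIs, with a median ratio of 0.922. *Nodal*, a ligand of the TGF-beta family, was higher, at 72.9 against 47.6 CPM and a ratio of 1.53 (1.37 to 1.72), as was its inhibitor *Lefty2*, at 1.89 (1.11 to 3.27). *Etv4*, an ETS factor downstream of FGF signalling, was higher too, at 56.7 against 29.5 CPM and 1.93 (1.68 to 2.21), while *Sox4* stood at 0.533 (0.439 to 0.644). Of its 365 wild-type UMIs 245 were in the 41 feeder-like cells, and 52 of its 156 knockout UMIs were in a single cell. Without feeder-like cells *Sox4* had 10.7 CPM (8.86 to 12.8) in wild-type and 12.1 CPM (9.99 to 14.6) in knockout cells, a ratio of 1.14 (0.870 to 1.48). The knockout cell with 52 UMIs was not feeder-like and held 52 of these 112 knockout UMIs. The interval does not cover such a cell, and the ratio without it was not computed, so no direction is read. The other 15 were within the fold of 1.5, among them the DNA methyltransferase gene *Dnmt3b* at 0.693 (0.618 to 0.775), and the FGF target *Etv5* at 0.922 (0.856 to 0.993). So 3 of 19 were higher and 1, *Sox4*, lower, against 10.5% and 9.48% of all genes. Without feeder-like cells 2 of 19 were higher and 1 lower, against 11.2% and 8.14% of all genes. *Nodal* then stood just inside the fold at 1.497 (1.34 to 1.68), and the lower gene was *Zic2*, at 0.654 (0.527 to 0.808) against 0.669 (0.540 to 0.827) in all kept cells, which lay just inside the fold.

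Of 12 naive factors with at least 50 UMIs, only *Fgf4*, a growth factor of naive ES cells, was past the fold. It had 80.4 against 48.2 CPM and a ratio of 1.67 (1.49 to 1.86). For this and the lists that follow, 10.5% of all genes were higher and 9.48% lower by the same fold. *Nanog* had 260 and 257 CPM and *Zfp42* 701 and 552 CPM for wild-type and knockout cells in turn. Of the 5 core factors *Sox2* was lower, at 92.4 against 159 CPM, a ratio of 0.581 (0.536 to 0.631). Among 6 Wnt and TCF genes that act with *Lef1*, the median ratio was 0.787, and they did not move one way. *Tcf7l1*, the most abundant of them and a repressor of Wnt targets, stood at 246 CPM in wild-type and 349 CPM in knockout cells. Its ratio was 1.42 (1.35 to 1.49), inside the fold of 1.5, and *Tcf7* stood at 1.09 (0.850 to 1.39). The Wnt target *Sp5* was lower at 0.609 (0.468 to 0.788). *Axin2* at 0.697 (0.590 to 0.823), *Tcf7l2* at 0.699 (0.582 to 0.839) and *Ctnnb1* at 0.873 (0.816 to 0.934) were lower inside the fold. *Nkd1*, under the minimum of 50 UMIs, had a ratio of 0.258 (0.0875 to 0.632). Of 12 relatives of the 7 genes, *Fgf4* alone was past the fold. *Pim1* had a ratio of 0.858 (0.807 to 0.911), *Pim3* 1.40 (1.30 to 1.51) and *Cdh1*, which encodes E-cadherin, 0.955 (0.889 to 1.03). *Pou3f2* had 1.08 (0.678 to 1.70) and *Otx1* 1.21 (0.705 to 2.06). *Cdh11* stood at 0.697 (0.486 to 0.989) in all kept cells and at 1.99 (1.09 to 3.72) without feeder-like cells.

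Finally, cells were divided by whether they held any of the 6 genes other than *Cdh2*, feeder-like cells left out, after thinning to 2000 UMIs. The positive cells numbered 92 in wild-type and 64 in knockout cells, against 1511 and 1034 others. Over 61 genes, those of the lists and *Lin28a*, the interval of the ratio lay above 1 for 3 genes and below 1 for 0 in the wild-type library, and above 1 for 2 and below 1 for 1 in the knockout library. No gene did so in both. The wild-type genes were *Dnmt3b* at 1.79 (1.13 to 2.70), *Etv5* at 1.497 (1.04 to 2.09) and *Axin2* at 2.03 (1.05 to 3.63). The knockout genes were *Nanog* at 1.42 (1.02 to 1.94), *Klf5* at 1.33 (1.09 to 1.60) and *Pim1* at 0.562 (0.296 to 0.972). With so many comparisons and none shared, they are given as values only.

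Across all 6345 genes with 200 or more UMIs in both libraries, none followed the summed 7 genes closely from cell to cell. Ranked by the lower of the libraries' Pearson correlations, the 5 leading genes were *Gm26722* (0.09 in 1642 wild-type and 0.07 in 1110 knockout cells), *Olfr1388* (0.07 and 0.11), *Dnm1l* (0.06 and 0.07), *Tram1* (0.09 and 0.06) and *Lpp* (0.08 and 0.06). *Nanog* had 0.00 and 0.07 and *Zfp42* −0.02 and −0.02. Correlations this weak in sparse counts are no finding.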

How the data were processed

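UMI count tables of 2 libraries were analysed. The tables the authors deposited hold unnormalized UMI counts, with genes as rows and barcodes as columns. The submitters' processing notes name mm10 and Seurat 2.3.4, and the aligner and annotation are not given in the sources used here. Identifiers were matched without version to GENCODE M21 (54079 of 54146 rows), which also gave the coordinates. The members and lists were chosen with earlier results of these data known. Barcodes were numbered within each library, so shared barcodes could not be counted.

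Cells had at least 500 UMIs and at most 20% mitochondrial UMIs, which removed 2472 and 4423 barcodes by depth and 1 and 15 by the second limit. Counts were summed over cells as CPM, with exact Poisson, exact binomial (Clopper-Pearson) and conditional ratio intervals. Shares at 500 UMIs were hypergeometric. Cells of at least 2000 UMIs were thinned with seed 1. Scrublet marked 27 wild-type and 18 knockout doublets, which were kept. In these, 9 and 4 UMIs were of the 7 genes. Named genes were the 7 genes, the lists, and the 5 genes with the highest lower correlation. Several genes overlap others: *Otx2*, *Lef1*, *Pou3f1* and *Cdh2* have antisense or other overlapping annotations, which held 0 to 9 UMIs per library, and strand use in the counting is not given. The ribosomal protein set was widened to 92 genes after a first run. The calculation was tested on simulated data. Alternatives were other limits on cells, feeder-like cells left out, other scalings, thinning depths and draws, and, added after seeing the data, sums without *Cdh2*, the related genes without feeder-like cells, the 20 further draws at each thinning depth, and all UMIs counted after thinning to 5000, with and without feeder-like cells. Intervals were computed with scipy 1.17.1 and numpy 2.4.6 under Python 3.11.15, Scrublet was run from scanpy 1.11.5, and matplotlib 3.10.9 drew the plots.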

Additional observations from a re-analysis of the deposited data

Results flagged for a closer look

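The barcodes under 500 UMIs, which were not among the kept cells, also held transcripts of the 7 genes, and no control sample existed to set them against. Summed, the 7 genes stood at 59.2 CPM (38.7 to 86.8) in 2472 wild-type barcodes with a median of 147 UMIs, from 26 UMIs. They stood at 50.5 CPM (34.98 to 70.6) in 4423 knockout barcodes with a median of 129 UMIs, from 34 UMIs. The kept cells had 34.97 and 33.8 CPM. In these barcodes *Pim2* had 9 and 7 UMIs, *Pou3f1* 6 and 9, *Cdh2* 5 and 8, *Lef1* 4 and 4, *Otx2* 0 and 4, and *Fgf5* and *Sall2* 1 each, for wild-type and knockout barcodes in turn.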

How the results depend on the processing

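No paired analysis was possible because each genotype was a single library. The ratio of the summed genes lay between 0.932 and 1.18 over 13 alternatives. It was 1.18 as the mean over cells of the per-cell CPM, 1.15 without *Cdh2*, and 1.15 without *Cdh2* and the feeder-like cells. The number of genes past the fold of 1.5 fell from 2 to 1 with a mitochondrial limit of 10% or none, without feeder-like cells, without cells under 5% ribosomal protein UMIs, with only cells of at least 2000 UMIs, with median of ratios scaling, and with a fold of 2. Without the minimum of 50 UMIs it was 4, since *Fgf5* and *Sall2* then counted. *Otx2* ranged from 1.42 to 1.66 and *Cdh2* from 0.342 to 0.587. As means over cells *Pou3f1* was 1.39 and *Lef1* 1.92, the cells of 500 to 2000 UMIs then weighing as much as deep ones. By *Nanog*, the wild-type ratio was 0.839 to 1.32 and the knockout ratio 1.12 to 2.07 over 11 alternatives each. The knockout interval lay above 1, among other settings, in all UMIs of the first draw (1.82, 1.32 to 2.47, against 6 of 20 further draws with the interval above 1), with thinning to 5000 UMIs (1.78, 1.14 to 2.80), with that and all UMIs (2.07, 1.49 to 2.90, above all 20 further draws, which gave 1.30 to 1.72) and between cells split by CPM into 3 parts (1.52, 1.10 to 2.13), and included 1 with another seed (1.12, 0.508 to 2.24), without *Cdh2* (1.86, 0.887 to 3.63), without cells under 5% ribosomal protein UMIs (2.01, 0.982 to 3.86) and for 1 or more *Nanog* UMIs against 0 (1.40, 0.846 to 2.28). By *Zfp42* the wild-type ratio was 0.654 (0.484 to 0.899) with thinning to 5000 UMIs and all UMIs counted, and 1.66 (0.956 to 3.17) when feeder-like cells were also left out. By *Zfp42* in the knockout library it was 2.03 with thinning to 5000 UMIs, 1.47 between cells split by CPM into 3 equal parts, highest over lowest, and 1.40 with thinning to 5000 UMIs and all UMIs counted, and the cause was not tested. Over the main comparisons 55 values under an alternative stayed near the reported one and 15 did not, a ratio being near inside the reported ratio's 95% interval and a number of genes within 1.5 times, and over single genes 74 did and 3 did not. Since many of these intervals are wide, a value could count as near while on the other side of 1. For *Zfp42* in knockout cells 1.13 with another seed counted as near 0.701. Depth limits these genes: most positive cells held 1 UMI.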
